A study of Rattus norvegicus with 12 samples.

Results

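In the whole retinas of RCS rats, 42 of the 32883 annotated genes stood far above libraries of the same age in library 4, and far above libraries of the same age and line in library 19. Libraries are named by the number that ends their label. Levels are counts per 1000000 of the library total (CPM). The 42 genes had at least 5 CPM in library 4, at least 4 times the highest of libraries 1, 2 and 5 in library 4, and at least 4 times the higher of libraries 20 and 21 in library 19. Genes on chromosomes X and Y were left out, where 1 gene met the thresholds, and so was an interval of chromosome 9 that holds 1 annotated gene, described further on. Of the 11462 remaining genes at 5 CPM or more in library 4, 53 (0.462%) met the ratio for library 4, 94 (0.82%) met that for library 19, and 42 met both. These 42 genes were therefore chosen on their values in 7 libraries, and those values are given as a description with no test. Libraries 3, 6, 22, 23 and 24 were not used to choose them.

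The RCS rat carries a MerTK mutation that impairs the clearance of shed photoreceptor outer segments, and its photoreceptors degenerate. Libraries 1, 2 and 3 were from Day 21 (p21) retinas with the genotype RCS-p+, labelled WT and male, and libraries 19, 20 and 21 were from Day 60 (p60) retinas of the same label, called immunocompetent here. Libraries 4, 5 and 6 at p21 and libraries 22, 23 and 24 at p60 had the genotype RCS-p+/Foxn1mu and were labelled athymic and female. Foxn1 is needed for the thymus, so the athymic rats are immunodeficient, and all groups share the RCS background. Each group held 3 libraries of polyA RNA. No source used here says how many animals or eyes one library holds, so the spread between libraries may be partly technical.

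The retina lies against the retinal pigment epithelium, choroid and sclera, and the lens, ciliary body and iris lie in front of it. Lens fibre cells are filled with crystallins, the proteins that give the lens its refractive power, and are coupled by connexins such as Gja3, with Mip and Lim2 as major membrane proteins. Some crystallins, among them Cryaa and Cryab, are also made by retinal cells. A dissected retina can hold fragments of neighbouring tissues, and in bulk RNA, fewer cells of a type and less RNA per cell cannot be told apart. The deposited tables give Ensembl identifiers without gene symbols, and none of them (0 of 32883) occurs in the RefSeq gene table at hand. The genes are therefore given by position in the files' coordinates (Rnor_6.0), and neither the label of carried-over tissue nor the retinal label could be checked against named marker genes.

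Total counts ranged from 13852516 to 16725355 per library. The libraries stood apart in one other way. The 48 Y-linked genes summed to 328, 316 and 269 CPM in libraries 4, 5 and 22, which are labelled female, against 229.2 to 323 CPM in the 6 libraries labelled male and 8.79, 23.2 and 16.1 CPM in libraries 6, 23 and 24. Library 4, on which the choice of genes rests, thus resembled the male-labelled libraries in its Y-linked genes. The part of the sex label in the 42 genes was not tested, although the raised libraries held both kinds, with low Y counts in libraries 6 and 24 and high Y counts in libraries 4 and 19.

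Together, the 42 genes summed to 17508 CPM in library 4, whereas libraries 1, 2 and 5 had 369.9, 494.9 and 377.7 CPM. Library 6, the remaining athymic library at p21, had 3030 CPM, and library 3, the remaining immunocompetent library, had 1460 CPM. At p60, library 19 reached 8407 CPM, while libraries 20 and 21 had 372 and 254.4 CPM. Among the athymic p60 libraries, number 24 had 4015 CPM, and numbers 22 and 23 had 336.2 and 277.7 CPM. In each group, 1 library was therefore well above the lowest ones, and in the athymic p21 group libraries 4 and 6 both were. As a share of all counts, the genes took 1.75% of library 4 (95% Wilson interval 1.74% to 1.76%), 0.841% of library 19 (0.836% to 0.846%) and 0.402% of library 24 (0.398% to 0.405%). In library 21, the lowest, they took 0.0254% (0.0247% to 0.0263%). These intervals cover counting error only, since reads copied by PCR are not independent molecules.

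**Figure D1:**
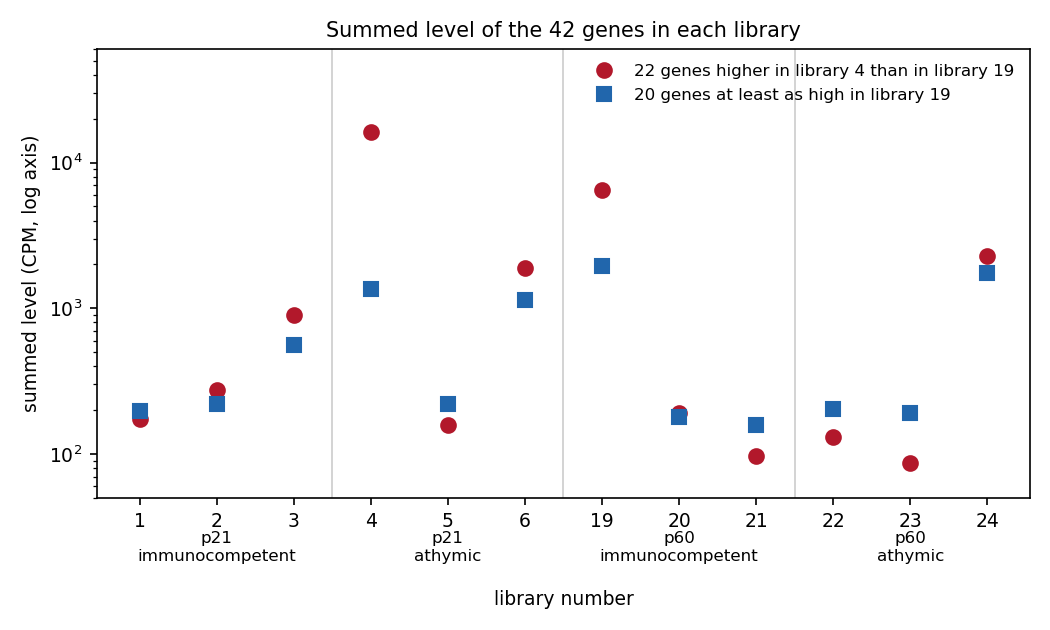
Summed level of the 42 genes in each of the 12 libraries, in CPM on a log axis, with the 22 genes that were higher in library 4 than in library 19 as circles and the other 20 genes as squares. Libraries 3, 4, 6, 19 and 24 sit above the rest for both sets, and the circles reach 16154 CPM in library 4.

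A few genes made up most of this sum. The 5 highest genes of each library carried 69.4%, 66.3% and 65.9% of the set's CPM in libraries 4, 19 and 24. In library 4, the most abundant gene was ENSRNOG00000047175 (chr20:10438444-10442187, plus strand, 1171 exonic bases). It had 49.3, 87.9, 397.0, 5871, 51.8 and 832.4 CPM in libraries 1 to 6. At p60 it had 2904, 49.3 and 14.7 CPM in libraries 19, 20 and 21, and 25.9, 8.93 and 1061 CPM in libraries 22, 23 and 24. It was thus high in libraries 4, 19, 24 and 6, intermediate in library 3, and below 90 CPM in every other library.

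Per kilobase of exon in library 4, this gene was also the highest of the set, at 5014 CPM per kb. The next were on chromosomes 10 and 12. The gene at chr10:65161152-65167494 reached 2695 CPM per kb in library 4, and 4 genes on chromosome 12 reached 2072, 1973, 1217 and 1066 CPM per kb. They were followed by genes at chr9:82151057-82154266 (771.2 CPM per kb), chr8:55178289-55182545 (674.5), chr11:81796891-81802172 (640.1) and chr12:16170162-16172129 (482.1). The other genes of the set ranged down to 1.20 CPM per kb, and the median of the 42 was 23.7 CPM per kb.

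The profile was not the same for all 42 genes. For 22 genes the level was higher in library 4 than in library 19, and for 20 it was higher in library 19 or equal. Since both libraries were used to choose the genes, the split is a description. The first 22 genes summed to 16154, 6441, 2272, 1888 and 899.8 CPM in libraries 4, 19, 24, 6 and 3, and to between 86.7 and 275.1 CPM in the other 7 libraries. The other 20 genes had similar sums in 4 libraries, with 1354, 1966, 1743 and 1143 CPM in libraries 4, 19, 24 and 6. Much of these sums came from 2 chromosome 16 genes, with 412.3 and 304.1 CPM in library 4 and 423.2 and 329.2 CPM in library 6. The single genes were less even. Over the 20 genes, the median ratio of library 6 to library 4 was 0.78, and 5 were higher in library 6. Library 3 had 559.9 CPM for these 20 genes, and the other 7 libraries had 157.6 to 219.9 CPM.

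The sums of both sets thus lay above the low libraries in the same 5 libraries. The sum of the first set varied more between them, but the split itself used libraries 4 and 19, so nothing is read from this. The sets also differed in gene structure, which the choice did not use. Median exonic length was 1210 bases for the first 22 genes and 3396 bases for the other 20, and the median number of separate exon blocks was 5 and 13.5. Over the 11851 genes with at least 5 CPM in library 4, the medians were 2512 bases and 10 exon blocks. In library 4, the chromosome 16 gene at chr16:83522162-83632153 (ENSRNOG00000016281, 52 exon blocks) was the most abundant of the second set. It had 42.7, 68.0, 193.0, 412.3, 54.6 and 423.2 CPM in libraries 1 to 6, then 616.3, 43.7 and 36.0 in libraries 19 to 21, and 55.8, 49.3 and 644.9 in libraries 22 to 24. Unlike the most abundant gene of the first set, it was as high in library 6 as in library 4, and highest in library 24.

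**Figure D2:**
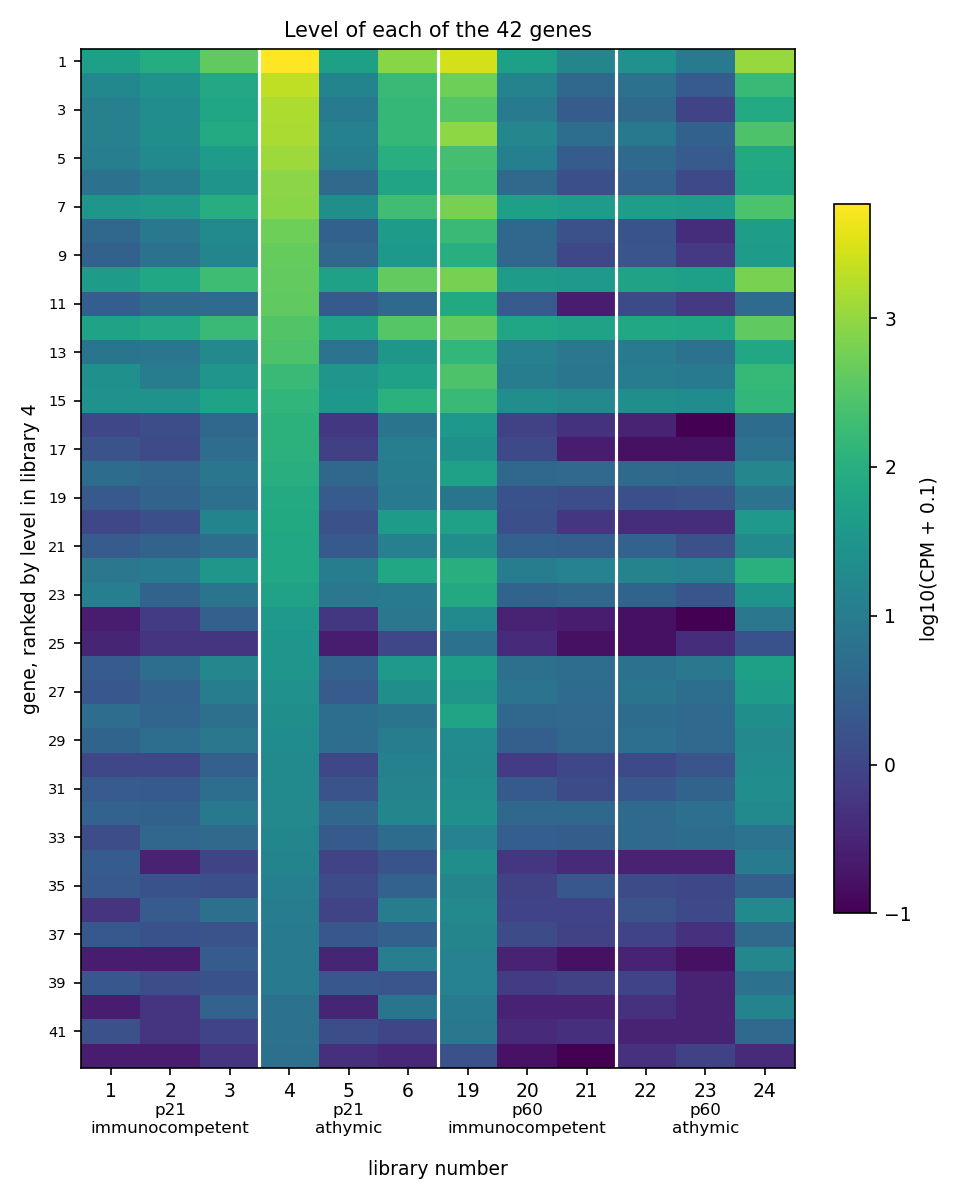
Level of each of the 42 genes (rows, ranked by CPM in library 4) in each library (columns, grouped by age and line), as log10(CPM + 0.1). The columns of libraries 4, 19 and 24, and less so 6 and 3, are brighter than the rest of their groups, and the top row is the gene with 5871 CPM in library 4.

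A like ratio was then taken for libraries 24, 6 and 3, which had not been used to choose the genes. For library 24 the reference libraries 22 and 23 had not been used either. For libraries 6 and 3 the references were libraries 5, 1 and 2, whose low values had helped to choose the genes, so these ratios are not independent of the choice and their counts are a description. In library 24, 36 of the 42 genes were at least 4 times the higher of libraries 22 and 23, against 0.691% of the 16069 genes tested between the ages, all 42 among them. Of the 35 genes of the set with at least 5 CPM in library 24, 31 passed, beside 0.549% of all 12210 genes at that level. The median ratio of the 42 genes was 8.39, and 41 were higher in library 24. In library 6, 28 of the 42 genes were at least 4 times library 5, against 0.958% of the genes tested, with a median ratio of 7.39. At 5 CPM or more in library 6, 27 of 33 passed (background 0.494%). In library 3, 5 of the 42 genes were at least 4 times the higher of libraries 1 and 2 (background 0.205%), and 27 were at least 2 times higher (background 1.32%), with a median ratio of 2.47. At 5 CPM or more in library 3, 2 of 26 passed 4-fold (background 0.0591%). Between the low libraries 22 and 23, 5 of the 42 genes were at least 4 times higher in library 22 (background 0.33%), as many as for library 3, with a median ratio of 1.17, and 0 of the 13 genes with at least 5 CPM in library 22 were (background 0.0574%). Each comparison rests on 1 raised library, so there is no replicate and no test.

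The genes were not raised as one block in these libraries, in a split that shares the reference libraries 5, 1 and 2 with the choice and is likewise a description. Both library 24 and library 6 were raised at least 4-fold for 27 genes, which summed to 16520 CPM in library 4 and included the 10 most abundant. For 9 genes only library 24 passed 4-fold. These 9 summed to 813.3, 718.1 and 384.6 CPM in libraries 4, 19 and 24, but to 194.1 CPM in library 6, against 86.3 in library 5. Their median ratio of library 3 to the higher of libraries 1 and 2 was 0.817, against 2.88 for the 27 genes. Their sum was nevertheless higher in library 3, at 111.3 CPM, than in libraries 1 and 2, at 80.0 and 52.9 CPM. This came largely from 1 gene, at chr17:90553394-90627101, with 59.1 CPM in library 3 and 28.3 CPM in each of libraries 1 and 2. For 1 gene only library 6 passed, and for 5 genes neither did.

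In library 4, the gene at chr7:2635743-2642848 was the most abundant of the 9. It had 395.3 CPM in library 4 and 79.8 in library 19, but 4.57 CPM in library 24 and 4.24 in library 6, and 0.132 to 4.48 CPM in the other 8 libraries. In library 24 it lay 4.26 times above the higher of libraries 22 and 23, while its level was close to that of libraries 2, 3 and 6. The gene at chr20:37876650-37889089 had 160.3, 273.3 and 157.9 CPM in libraries 4, 19 and 24, with 54.2 in library 6 and 7.34 to 30.6 in the other 8. Both genes were thus high in libraries 4 and 19, and of the 2 only the chromosome 20 gene was at a like level in library 24.

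**Figure D3:**
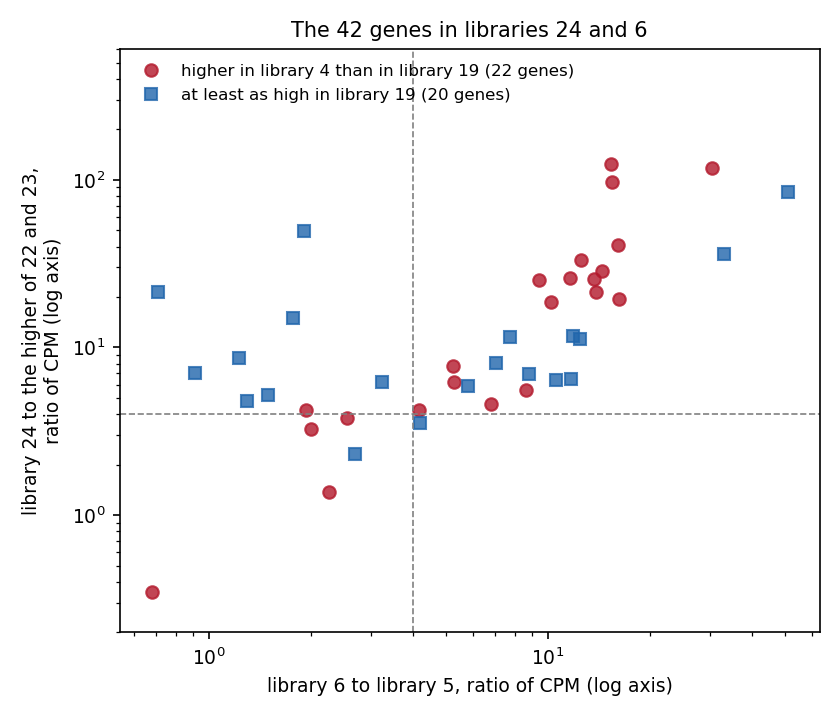
Ratio of CPM in library 24 to the higher of libraries 22 and 23 (vertical) against the ratio of library 6 to library 5 (horizontal), both on log axes, for each of the 42 genes. Dashed lines mark 4-fold, 27 genes lie past both lines, and the highest vertical values rest on 1 to 5 counts in libraries 22 and 23.

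At the upper end of the ratio in library 24 were genes nearly without counts in the other athymic p60 libraries. The gene at chr15:37299738-37325178 had 116 counts in library 24, and 1 and 0 in libraries 22 and 23. The gene at chr4:6903198-6909167 had 93 counts against 1 and 1, that at chr5:133724796-133725656 had 238 against 3 and 1, and that at chr1:151012598-151106802 had 142 against 3 and 3. At the lower end, the gene at chr4:122994425-123040609 was the only one of the 42 that was lower in library 24, with 4 counts against 6 and 12. It had 86 counts in library 4 and 20 in library 19. The next lowest ratios in library 24 were 1.38, 2.31, 3.26 and 3.55.

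The 2 genes with the lowest level inside the minimum had 5.76 and 5.96 CPM in library 4, and 2 genes that met both ratios had 4.95 CPM and were left out. For library 4 against libraries 1, 2 and 5, the ratios just inside were 4.03 and 4.04, and those just outside were 3.68 and 3.57. For library 19 against libraries 20 and 21, they were 4.63 and 5.07 inside, and 3.91 and 3.58 outside.

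The 42 genes lay on 19 chromosomes, with 5 each on chromosomes 8 and 12. No gene of the set shared exonic positions with another annotated gene. Within 250000 bases of each other, 3 pairs of the set were found, each with 0 annotated genes between. On chromosome 12, the genes at chr12:49565992-49571006 and chr12:49578633-49588555 were both on the plus strand, 7626 bases apart. Also on chromosome 12, the genes at chr12:50390940-50404550 (minus strand) and chr12:50407843-50414432 (plus strand) were 3292 bases apart. On chromosome 16, the genes at chr16:83387364-83438561 (minus strand) and chr16:83522162-83632153 (plus strand) were 83600 bases apart. The chromosome 12 genes of the first pair had 1548 and 1445 CPM in library 4, but 313.9 and 923.6 in library 19 and 83.9 and 271.7 in library 24. Those of the second pair had 1199 and 852.6 CPM in library 4, 229.8 and 197.5 in library 19 and 79.0 and 64.8 in library 24. The chromosome 16 genes had 304.1 and 412.3 CPM in library 4, 413.0 and 616.3 in library 19 and 405.7 and 644.9 in library 24. Of these 3 libraries, the first pair was thus close in library 4 only, whereas the genes of the other pairs kept a more even ratio over these 3 libraries.

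Whether the set fits lens or another tissue was approached by layout, because the identifiers carry no names. For 19 marker lists of ocular and other tissues, each gene found once among the protein-coding genes of the RefSeq table (GRCr8 assembly) was compared with the files' genes on the same chromosome by its span from start to end. A gene of like span is not thereby the same gene, so no name or level was assigned from this comparison. Exactly 1 gene of the files had a span within 0.1% for 8 of the 27 genes of the lens fibre list, and 5 of those 8 were in the set. For the other 18 lists, 56 of 163 genes had such a partner, and 0 of the 56 were in the set. These lists cover lens epithelium, ciliary body and iris, pigment cells, retinal pigment epithelium, cornea and conjunctiva, fibroblasts, smooth and skeletal muscle, endothelium, myelin, red blood cells, leukocytes and the retinal cell types. Most genes of these lists had no such partner, and a partner may be another gene. The 0 is therefore not read as absence of these tissues.

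With an identical span, the beta-crystallin Crybb1 (13611 bases on chromosome 12) had exactly 1 partner in the files, and that gene was in the set. At the 0.1% tolerance Crybb1 had no single partner, so it is not among the 8 genes above. In the RefSeq table, the lens fibre list held 2 pairs of adjacent genes, both on chromosome 12, namely Crybb3 with Crybb2, both on the plus strand, and Crybb1 on the minus strand with Cryba4 on the plus strand. The strands of the 2 chromosome 12 pairs in the set were the same. Within 0.1%, the single partners of Crybb3 (5012 bases, partner 5015) and Crybb2 (9925 bases, partner 9923) were the 2 genes of the plus-strand pair. At the 0.1% tolerance, 19 of the 27 lens fibre genes had no single partner and 3 had one outside the set, so most genes of the set stay without a counterpart on any list.

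The interval of chromosome 9 that was left out held 1 annotated gene (chr9:72933304-72935468, ENSRNOG00000032869). In the RefSeq table, the gamma-crystallin gene Crygf on chromosome 9 has the same span of 2165 bases, a comparison made after the values were seen. The gene had 75.5, 13.8 and 6.21 CPM in libraries 4, 6 and 3, and 0.360, 1.46 and 1.06 CPM in libraries 1, 2 and 5. The order of the p21 libraries was therefore that of the sum of the 42 genes at the upper end. At p60 it had 0.494 CPM in library 19 and 0.336 CPM in library 24, from 7 and 5 counts, against 11, 0, 2 and 2 counts in libraries 20, 21, 22 and 23. The 2 p60 libraries in which the sum of the 42 genes was high were thus not high for this gene. It did not meet the threshold in library 19.

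Between p21 and p60, 0 of the 42 genes passed edgeR's quasi-likelihood test, fitted over all 12 libraries with line as a covariate, after Benjamini-Hochberg adjustment to 0.05, whereas 62% of the 16069 genes tested passed, 31.7% higher and 30.3% lower at p60. All 42 genes passed the filter on low counts (41 without libraries 4 and 19), and libraries 4 and 19 had been used to choose them, so the counts are read as a description. At an unadjusted p-value under 0.05 the count was 1 of the 42 genes and 65.3% of all genes, and with DESeq2 after adjustment it was 0 of the 42 and 61.5% of all genes. The log2 fold changes ran both ways, with 22 negative and 20 positive and a median of -0.05, beside 0.02 over all genes tested. Their standard errors were large, with a median of 1.01 on the log2 scale against 0.0813 over all genes. For the most abundant gene the change was -0.26 ± 2.03 (log2, standard error), with an adjusted p of 0.92, and for the chromosome 16 gene with 52 exon blocks it was 0.28 ± 0.85, with an adjusted p of 0.794. The gene at chr3:137935345-137969658 (ENSRNOG00000005707) had the lowest p-value, at -2.08 ± 0.917 with an adjusted p of 0.0638. Without library 4 its change was -0.68 with an adjusted p of 0.31, and the adjusted p was 0.0349 without library 5 and 0.00924 without library 19. Over all alternatives it ran from 0.00217 to 0.31, on both sides of 0.05. It had 82.4 CPM in library 4 and 2.02 to 9.39 CPM in the other p21 libraries, against 6.92 and 6.59 CPM in libraries 19 and 24 and 1.26 to 1.55 CPM in the other p60 libraries.

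The change between the ages moved with the libraries included. Because the genes had been chosen for being high in library 4 at p21 and library 19 at p60, leaving out one of these leaves the excess of the other, so the directions and counts without one of them follow from the choice and nothing is read from them. Without library 4, 41 of the 42 genes had a positive log2 fold change (median 0.73) and 0 passed the threshold, against 59.4% of all genes. Without library 19, all 42 had a negative one (median -1.29) and 13 were significantly lower at p60, against 29% of all genes. Without both, 37 of the 41 genes tested were negative (median -0.60) and 1 was significantly lower, against 27.8% of all genes. Without libraries 4, 19 and 24, all 40 genes tested were negative (median -1.87) and 31 were significantly lower at p60, against 27.3% of all genes that were significantly lower. In that last fit, p21 still included libraries 3 and 6, where the sum of the 42 genes, though not every gene, was raised. No such library was left at p60, and library 24 was removed because that sum was high in it. On library totals the sums of the low libraries met, with 369.9 to 494.9 CPM in libraries 1, 2 and 5 and 254.4 to 372 CPM in libraries 20 to 23. With TMM scaling they did not, with 399.6 to 528.2 CPM against 239.3 to 347.6 CPM.

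**Figure D4:**
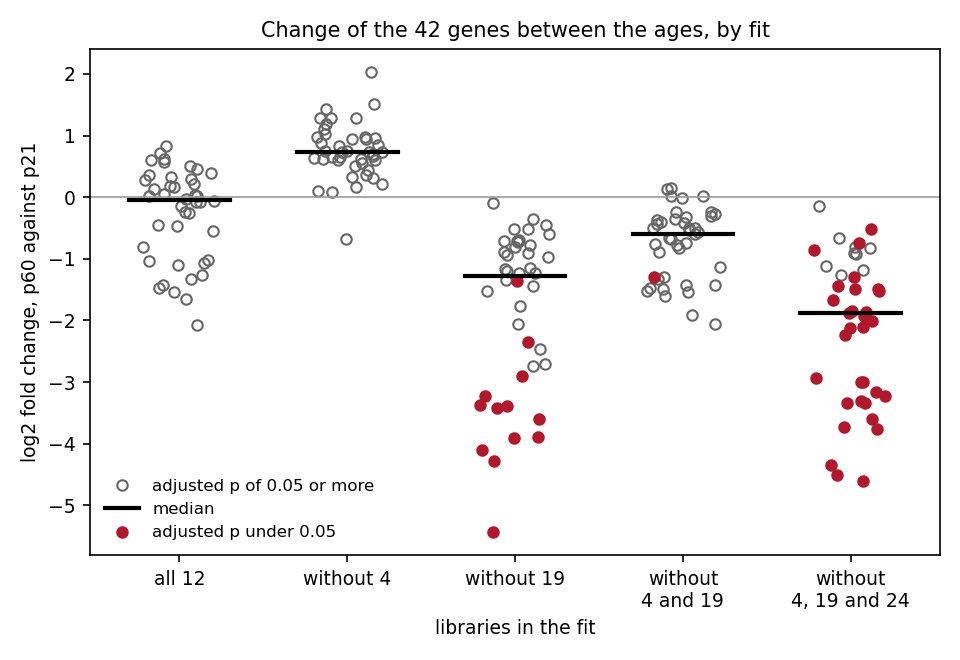
Log2 fold change of the 42 genes between p60 and p21 in 5 fits that differ in the libraries included (41 genes were tested without libraries 4 and 19, and 40 without libraries 4, 19 and 24). Each point is a gene, bars are medians, and filled points have an adjusted p-value under 0.05. The median moves from -0.05 with all 12 libraries to 0.73 without library 4 and -1.29 without library 19.

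Between the lines over both ages, 0 of the 42 genes passed the same edgeR test with age as a covariate, and neither did any other gene (0% of 16069). This fit includes the 7 libraries that chose the genes, among them athymic library 4 chosen high against immunocompetent libraries 1 and 2, so the counts and directions are a description. At an unadjusted p-value under 0.05, the counts were 0 of the 42 genes and 1902 of all genes (11.8%). DESeq2 called 263 genes (1.64%), of which 0 were in the set. The log2 fold change was positive, that is higher in the athymic line, for 40 of the 42 genes, with a median of 0.96 and a median standard error of 1.01. Every athymic library was labelled female and every immunocompetent one male, so line and sex label cannot be told apart here. Of the 5 raised libraries, 4, 6 and 24 were athymic and 3 and 19 immunocompetent. Without library 4 the median was -0.08, and without library 19 it was 2.46, a direction that the choice of genes fixes. Without both, all 41 genes tested were positive with a median of 1.47, 13 at an unadjusted p-value under 0.05 (13.1% of all genes) and 0 at an adjusted one (0.0431%), although the low values of libraries 1, 2, 5, 20 and 21 had still been used in the choice. Without libraries 4, 19 and 24 the median was 0.54.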

How the data were processed

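The authors mapped the reads with STAR to an Ensembl rat genome and counted them per gene with featureCounts. The submitters' processing notes list STAR 2.5.2b, Subread 1.5.2 and Rnor_6.0, and the strand setting is not given in the sources used here. The deposited values are raw counts per gene, 1 file per library, and all 12 libraries were used.

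From these counts, CPM was computed on library totals, and 42 genes were chosen by the thresholds given above. Differences were tested with R 4.3.3 and edgeR 4.0.16 (filterByExpr with a minimum count of 10 and a minimum total of 15, TMM factors, glmQLFit and glmQLFTest, Benjamini-Hochberg adjustment over all genes tested, threshold 0.05), fitted on the whole table. The standard error of each log2 fold change is its size divided by the square root of F. Figures were drawn with matplotlib 3.10.9. In simulated tables where 200 genes moved by 1 on the log2 scale, 170 were recovered among 15862 genes for the ages with 6 false calls, and 160 among 15883 genes for the lines with 7 false calls. The moved genes were drawn from all genes tested, whose median standard error between the ages was 0.0813, against 1.01 for the 42 genes. The recovery therefore does not apply to the 42 genes.

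The genes and the marker lists were chosen with earlier results of these data known, and the layout comparison was added after the files were seen. The rule for named genes asked for the genes on a marker list, the 10 highest per kilobase in library 4, the 5 highest and 5 lowest ratios in library 24, those beside each threshold, and up to 10 genes past the test between the ages. Without symbols, at most 2 identifiers each way were named, the others are given by position or by value alone, and 1 gene that the rule names is not reported here. The alternatives were other library scaling, other thresholds, no filter, DESeq2 1.42.0, no covariate, and fits without single libraries or without libraries 4, 19 and 24.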

Additional observations from a re-analysis of the deposited data

Results flagged for a closer look

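For 4 measures that did not choose the genes (total count, TMM factor, the chromosome 9 gene and the summed Y chromosome), 8 groups of 6 libraries of one age were searched for an outlying library using Dixon's gap-to-range ratio. By chance, about 1 in 20 groups would hold one. At p21, the gene of the chromosome 9 interval had 75.5 CPM in library 4, far above the other 5 libraries. Also at p21, the summed Y chromosome had 8.79 CPM in library 6, far below the other 5. Libraries 4, 5 and 6 are all labelled female, so the sums that depart from the label are those of libraries 4 and 5. At p60, libraries 23 and 24 were both low, and neither was flagged. Neither flagged value was tested for a cause.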

How the results depend on the processing

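The number of genes that met the thresholds was 42, and 26 with ratios of at least 6 in place of 4. It was 54 with ratios of at least 3, 60 with a minimum of 1 CPM in library 4, 36 with a minimum of 10 CPM, and 44 with TMM scaling. Genes of the set that differed between the ages numbered 0 with all libraries, and 1 without the filter on low counts, 1 without a term for line, 1 without libraries 4 and 19, and 31 without libraries 4, 19 and 24. Leaving out each library in turn gave 0 to 13, where 13 came without library 19 and 1 without library 5. Genes of the whole table that differed between the ages numbered 9558 to 9822 when each library was left out. Between the lines, 0 genes of the whole table passed, and 16 did without the filter, 263 with DESeq2, 7 without libraries 4 and 19, 1 without libraries 4, 19 and 24, and 0 to 74 when each library was left out (74 without library 3, 8 without library 4, 3 without library 19 and 1 without library 22). No gene of the set differed between the lines in any of these fits. For the chromosome 16 gene, ENSRNOG00000016281, the log2 fold change between the ages turned from 0.28 to -0.78 without libraries 4 and 19 and to -1.92 without libraries 4, 19 and 24, and it lay between -0.88 and 0.59 when each library was left out. For the most abundant gene, ENSRNOG00000047175, it lay between -2.74 and 1.02 when each library was left out. Without libraries 4 and 19 it was -1.475, and without libraries 4, 19 and 24 it was -3.606. In that last fit the edgeR adjusted p was 0.0044 for this gene and 0.0088 for the chromosome 16 gene. The causes of these moves other than the libraries left out were not tested. Depth did not limit the sums, but 3 genes of the set had 0 counts in at least 1 library, where 3 counts would be 0.179 to 0.217 CPM.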

Other observations

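With at least 5 CPM in library 4, 11 genes met the ratio for library 4 and not that for library 19. They summed to 2322 CPM in library 4 and 168.9 CPM in library 19, and 7 of the 11 were at least 4 times higher in library 6 than in library 5, with a median ratio of 5.68, beside 0.958% of all genes tested, but low values of library 5 had helped to choose these 11 genes. In library 24, 4 of the 11 passed 4-fold, beside 0.691% of all genes tested. Another 52 genes met the ratio for library 19 and not that for library 4, with 3149 CPM in library 19 and 1551 CPM in library 4. Of these, 22 passed 4-fold in library 24 and 3 in library 6, where the median ratio was 1.13, against the same shares of all genes. The difference between these sets was not tested.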
